A study of Mus musculus with 2 samples.

Results

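A set of 57 genes whose products copy DNA or repair it was followed in the RNA of the E14.5 mouse embryo. The genes were taken from a fixed list of symbols, chosen with earlier results of these data known. A probe set belonged to a gene when the array's annotation assigned it that symbol alone. All 57 had at least 1 such probe set, among 18194 genes measured in all. They comprised 36 replication genes, 10 genes of recombination and related double-strand break repair, 2 of mismatch repair, 6 of excision repair and 3 checkpoint kinases.

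Before each S phase, the origin recognition complex and its partners load the Mcm helicase onto DNA, and the helicase, polymerases, sliding clamp and nucleases then copy both strands. Repair works alongside. Recombination and end joining rejoin broken DNA, mismatch repair removes copying errors, and excision repair replaces damaged bases or stretches of a strand. Many replication genes are transcribed at the G1/S transition under the control of E2F factors, and a midgestation embryo contains dividing cells in most of its tissues.

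Total RNA was isolated with RNAzol from wild-type whole embryos at E14.5, labelled with biotin and hybridised to 2 Affymetrix whole-genome mouse arrays, which were duplicates of 1 condition. The study names the NMRI and C57/BL6 strains but not which of them gave the array RNA, nor whether the duplicates came from separate embryos. There was thus no comparison between groups, no test was possible, and the spread between the arrays may be technical. In RNA of whole embryos, fewer cells of a type and less RNA per cell cannot be told apart.

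Signal intensities had been scaled to a trimmed mean of 100 on each array, with medians of 32.0 on array 1 and 35.3 on array 2. In place of present calls, each array was given a bound of signal, 27.9 for array 1 and 33.8 for array 2. It is the 95th percentile of receptor genes for odours, pheromones and bitter taste (81 probe sets), taken as silent in most of the embryo. Genes with a probe set past the bound on array 1 and a probe set past it on array 2 were called above background. The signal shown for a gene is that of its brightest probe set, and the multiple of the bound given with it is the lower of the 2 arrays' ratios. Probe sets differ in efficiency, so a multiple of the bound says how far a probe set stood above background, and neither it nor the signal ranks the transcript levels of genes. All 8 tissue markers checked were above the bounds, among them Afp of liver at 3594 and 3529 and Hbb-y of primitive red cells at 3947 and 4118, and the lowest of the 8 was Pecam1 of endothelium at 52.2 and 38.8 on arrays 1 and 2.

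All 57 replication and repair genes were above background on both arrays, against 11925 of 18194 genes in all (65.5%). The members were chosen with earlier results of these data known, so this count describes the list and not such genes in general. Genes with more probe sets pass more often, so the count was also read by their number, and 15 of 15 members with 1 probe set passed against 48.6% of all such genes. The members with 2, 3 and 4 or more probe sets also all passed (18, 17 and 7 genes), against 76.1%, 87.4% and 93.6% of all genes in these classes. At least 2 times the bound was reached by 55 members, against 51.8% of all genes. At least 5 times was reached by 33 members against 29.4% of all genes, and at least 10 times by 21 members against 14.4%. Counts at these multiples took the highest ratio over a gene's probe sets on each array, and the medians took the brightest probe set. The median multiple of the bound was 6.54 for the members and 2.15 for all genes.

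The margin over background differed between the classes. The 36 replication genes had a median of 11.4 times the bound, with a range of 2.72 to 70.3, and the 21 repair and checkpoint genes had a median of 3.13, with a range of 1.17 to 9.04. All 21 members at 10 times the bound or more were replication genes. This did not hold outside the members, where 6 of 54 other repair and checkpoint genes (11.1%) reached it, against 14.4% of all genes. Within repair, the medians were 3.22 for recombination, 2.90 for excision repair and 2.87 for the checkpoint kinases, while the 2 mismatch repair genes lay at 9.04 and 2.66. The order of replication over repair remained among genes with 1 probe set, where no brightest probe set was chosen, at 9.83 for 8 replication genes, 3.22 for 7 repair and checkpoint genes and 0.94 for all 9182 such genes. It also remained when the median over a gene's probe sets was taken, at 8.29, 2.04 and 1.37, and without x_at and s_at probe sets, whose probes can match more than 1 transcript, at 9.46, 3.08 and 2.00. These medians describe margins over background and not amounts of RNA.

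**Figure D1:**
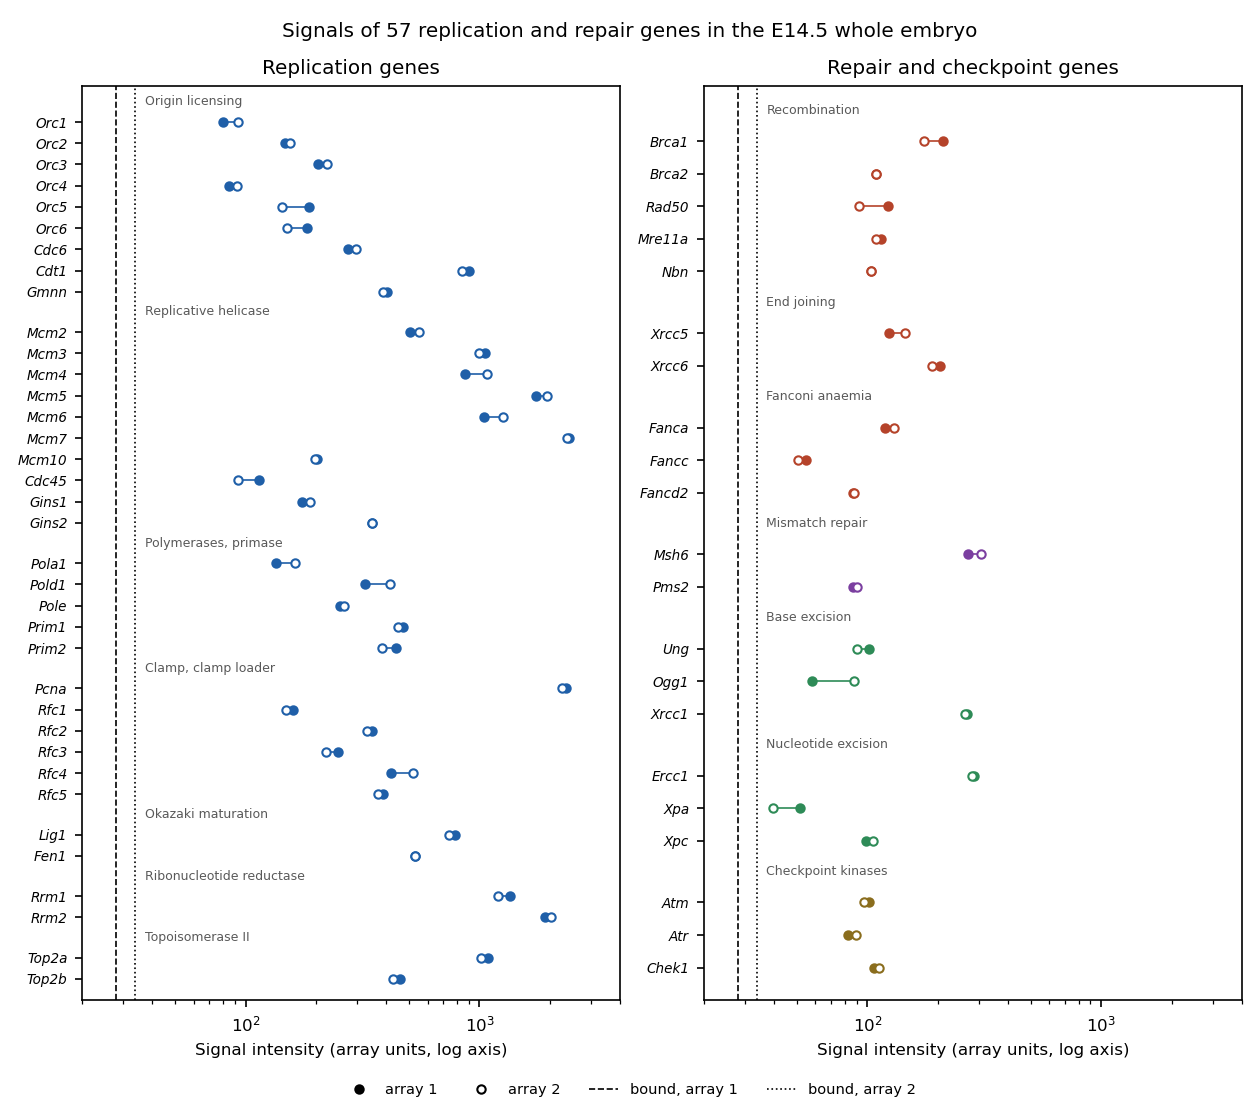
Signal intensity (array units, log axis) of the brightest probe set of each of the 57 genes on array 1 (filled) and array 2 (open), grouped by role, with the bound of each array as a broken line. All points lie to the right of the bounds of 27.9 and 33.8, the repair and checkpoint genes between 39.7 and 306 and the replication genes between 79.8 and 2412.

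Origins are marked by the 6 subunits of the origin recognition complex, and all 6 were above background. Orc1, the large ATPase subunit, had signals of 79.8 on array 1 and 92.5 on array 2. Orc2 had 148 on array 1 and 156 on array 2, and Orc3 had 203 on array 1 and 224 on array 2. Orc4, another AAA+ subunit, had signals of 85.0 on array 1 and 92.0 on array 2. The single probe set of Orc5 gave 186 on array 1 and 144 on array 2. That of Orc6, the smallest subunit, gave 183 on array 1 and 151 on array 2. Margins of the complex ran from 2.72 to 6.62 times the bound. The factors that act with it to load the helicase, and their inhibitor, had margins of 8.79 to 24.9. Cdc6, the ATPase that joins the origin complex to load the helicase, had 274 on array 1 and 297 on array 2. Cdt1, which brings the helicase to the origin, had 903 on array 1 and 842 on array 2. Gmnn encodes geminin, the inhibitor of Cdt1 that prevents a second round of licensing, and had 404 on array 1 and 386 on array 2.

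The 6 subunits of the Mcm2-7 ring, the core of the replicative helicase, were at 16.2 to 70.3 times the bound. Without x_at and s_at probe sets they were at 9.10 (Mcm3) to 33.6 (Mcm7), with 15.2 for Mcm2 and 19.2 for Mcm5. Mcm2 had signals of 503 on array 1 and 549 on array 2, Mcm3 had 1054 on array 1 and 996 on array 2, and Mcm4 had 870.0 on array 1 and 1075 on array 2. The other 3 subunits complete the ring. Mcm5 had 1737 on array 1 and 1944 on array 2, Mcm6 had 1042 on array 1 and 1259.9 on array 2, and Mcm7 had 2412 on array 1 and 2377 on array 2. The factors that activate the ring had margins of 2.75 (Cdc45) to 10.3 (Gins2, an s_at probe set, and 3.57 without it). Mcm10, needed for the start of unwinding, had 201 on array 1 and 197 on array 2. Cdc45, which joins the ring to form the active helicase, had 114 on array 1 and 92.9 on array 2. Of the GINS complex, the other part of the active helicase, Gins1 had 175 on array 1 and 189 on array 2 and Gins2 had 348 on array 1 and 349 on array 2.

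The catalytic subunits of the 3 replicative polymerases were at 4.82 (Pola1) to 11.6 (Pold1, an x_at probe set, and 6.45 without it) times the bound. Pola1, of the polymerase that starts each fragment, had 135 on array 1 and 163 on array 2. Pold1, of the main lagging-strand polymerase, had 323 on array 1 and 413 on array 2, and Pole, of the leading-strand polymerase, had 253 on array 1 and 264 on array 2. Both primase subunits, which make the RNA primers, were above background with margins of 13.2 and 11.3. Prim1 had 469.5 on array 1 and 447 on array 2 and Prim2 had 440.5 on array 1 and 382 on array 2. Pcna, the clamp that tethers polymerases to DNA, had 2349 on array 1 and 2261 on array 2 (66.9 times the bound). The 5 subunits of the loader that opens this clamp were all above background. Rfc1, the large subunit, had 159.5 on array 1 and 149.6 on array 2. Rfc2 had 348 on array 1 and 332 on array 2 and Rfc3 had 249 on array 1 and 221 on array 2. Rfc4 had 417 on array 1 and 519 on array 2 and Rfc5 had 388 on array 1 and 367 on array 2. Their margins ran from 4.43 to 14.9 times the bound.

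Genes that complete the copied strand or supply and untangle it were at 12.7 to 59.6 times the bound. Lig1, the ligase that seals Okazaki fragments, had 788 on array 1 and 742 on array 2. Fen1, the nuclease that trims their ends, had 528 on array 1 and 530.4 on array 2. The 2 subunits of ribonucleotide reductase, which makes deoxynucleotides, were at 35.7 and 59.6 times the bound, but Rrm2 was at 12.4 without its x_at probe set. Fen1 likewise was at 15.7, and at 9.01 without its x_at probe set. Rrm1, the catalytic subunit, had 1347 on array 1 and 1206 on array 2, and Rrm2, the subunit tied to S phase, had 1900.3 on array 1 and 2015 on array 2. Of the type II topoisomerases, Top2a, expressed in dividing cells, had 1089 on array 1 and 1019.6 on array 2. Top2b, also expressed in cells that no longer divide, had 459 on array 1 and 428 on array 2.

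**Figure D2:**
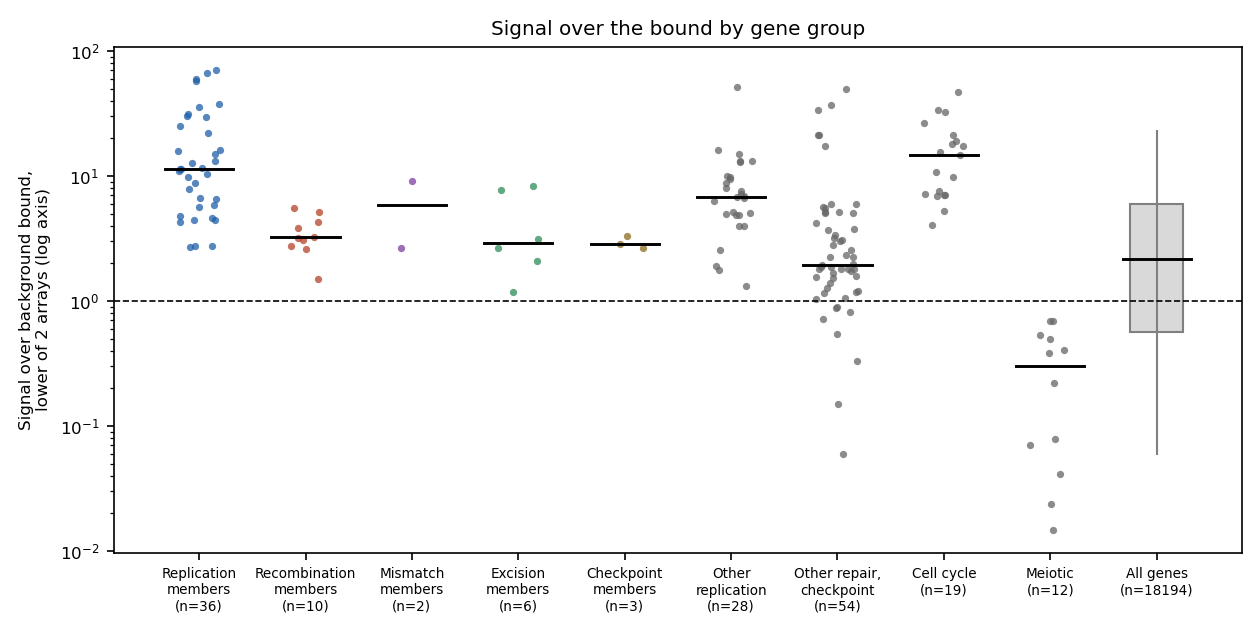
Signal over the bound (lower of the 2 arrays, log axis) for the classes of members (coloured), other genes of the same pathways and all genes, with 1 point per gene, a bar at the median and a broken line at the bound; for all genes the box spans the quartiles and the line the 5th to 95th percentile. The replication members have a median of 11.4, the recombination, excision and checkpoint members medians of 2.87 to 3.22, and all genes a median of 2.15.

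Sequence features that the list did not use were then read from the promoters. RefSeq promoters (GRCm38.p6) were listed for 46 of the 57 genes, and their 250 bases before the start were searched on both strands. An E2F-type word, here TTTCCCGC, TTTGGCGC, TTTCGCGC or TTTGCCGC, was present in 10 of 46 members (21.7%), against 3.94% of 9612 genes measured above background and 2.16% of 27025 genes in the promoter table. The share was 27.6% for the replication members (8 of 29) and 11.8% for the repair and checkpoint members (2 of 17), and 36 of the 46 members held none. In the lists set apart from the members it was 16% of other replication genes (4 of 25), 13.3% of other repair and checkpoint genes (6 of 45) and 20% of cell cycle genes (3 of 15). The matches are given because E2F is the factor best known at these genes, with 9 bases on each side where the window allows and the matching bases in capitals, read on the strand of the gene.
Orc1 (chr4:108579418-108579443, plus strand, 27 bases before the start): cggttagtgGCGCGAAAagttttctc
Orc3 (chr4:34614967-34614992, minus strand, 41 bases before the start): atgcctcccTTTCCCGCacgccccgc
Cdc6 (chr11:98908004-98908029, plus strand, 138 bases before the start): cggtggagaGCGGGAAAtcgcctggg
Mcm5 (chr8:75109347-75109376, plus strand, 153 bases before the start): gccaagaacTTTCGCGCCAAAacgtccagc
Mcm6 (chr1:128359736-128359761, minus strand, 47 bases before the start): ttggacgggTTTGGCGCgaagtagct
Mcm6 (chr1:128359795-128359824, minus strand, 110 bases before the start): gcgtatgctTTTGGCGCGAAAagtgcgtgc
Mcm7 (chr5:138172032-138172057, minus strand, 165 bases before the start): tttcgaaccGCGGGAAAcagggtgtc
Pola1 (chrX:93632277-93632302, minus strand, 138 bases before the start): catcacaggGCGCCAAAtgcactccc
Rfc3 (chr5:151651209-151651227, minus strand, 10 bases before the start): gtcgcacgcTTTCGCGCtc
Brca2 (chr5:150522444-150522469, plus strand, 168 bases before the start): taggccacaGCGGGAAAcagacacac
Xrcc6 (chr15:82016314-82016339, plus strand, 46 bases before the start): ggggtggaaGCGGGAAAtgcgagtgg
In these windows TTTCCCGC appears as GCGGGAAA where it lies on the other strand. Mcm5 and Mcm6 each held a pair of words that overlap in a run of 12 bases, and the run of Mcm5 is the reverse complement of that of Mcm6. Mcm6 held another word closer to its start. In Mcm7 the match lies beyond the annotated start of its neighbour Ap4m1, and in Orc3 beyond that of its neighbour Rars2. A match is a description of letters and not a site shown to be bound, and the gene sets were not matched on base composition.

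Signals were set beside these words. The 10 genes with a match had a median of 6.58 times the bound, and the 36 without had 5.50. Among the replication members alone, the order was the other way, with 7.70 for the 8 with a match and 13.2 for the 21 without. Pcna, Rrm2 and Top2a were among the genes with no match in this window. Over all measured genes with a promoter, 83.8% of those with a match were above background (379 of 452), against 66.3% of those without (9233 of 13916), with medians of 3.80 and 2.25. The CCAAT box, searched as CCAAT, was found in 31 of 46 members (67.4%), against 40.2% of the genes above background. Its share was 69.0% in replication and 64.7% in repair and checkpoint members. In the separate lists it was 73.3% of cell cycle genes (11 of 15) and 51.1% of other repair and checkpoint genes (23 of 45), but 32.0% of other replication genes (8 of 25), under the 40.2%, so the share was not common to replication genes. On the strand of the gene alone it was 28.3% of members (13 of 46), against 21.5% of all genes of the table. The GC box (GGGCGG) was found in 30 members (65.2%), near the 64.0% of the genes above background. The word TTTGAA of the CHR element, known from genes of late cell cycle, occurred in 4 members (8.70%), namely Mcm2, Cdc45, Fen1 and Top2a, against 12.9%. The cAMP response element TGACGTCA occurred in 3, namely Orc5, Mcm5 and Brca2 (6.52%), against 3.0%.

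**Figure D3:**
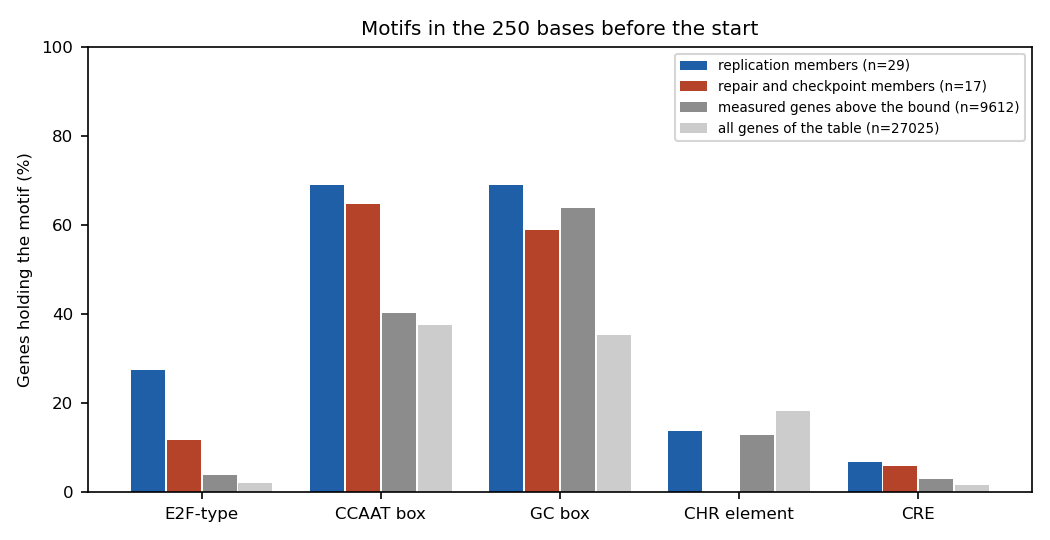
Share of genes (percent) whose 250 bases before the start hold each motif on either strand, for replication members, repair and checkpoint members, measured genes above background and all genes of the promoter table. E2F-type words were found in 27.6% and 11.8% of the member classes against 3.94% of genes above background, and the GC box in similar shares of members and of genes above background.

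Several members start close to another gene that is read the other way. A start on the opposite strand within 1000 bases was listed for 17 of 46 members (37%), against 22.9% of the genes measured above background and 15.8% of all genes in the table. Of these 17 neighbours 15 were measured and 11 were above background (73.3%), near the 65.5% of all genes. The bases between both starts were read for 11 pairs. The pairs of Orc2 and Orc3, with starts only 6 and 15 bases apart, were not among these 11. The bases are given for the 6 pairs that hold an E2F-type or CCAAT word, chosen for that. They are read on the strand of the member, with the words of either strand in capitals. The other 5, of Orc4, Orc5, Rfc5, Lig1 and Atr, hold neither.
Orc1 and Prpf38a (chr4:108579337-108579453, plus strand): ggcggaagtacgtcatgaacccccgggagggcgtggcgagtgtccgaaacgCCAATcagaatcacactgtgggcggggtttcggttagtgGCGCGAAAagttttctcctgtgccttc
Mcm7 and Ap4m1 (chr5:138171884-138172020, minus strand): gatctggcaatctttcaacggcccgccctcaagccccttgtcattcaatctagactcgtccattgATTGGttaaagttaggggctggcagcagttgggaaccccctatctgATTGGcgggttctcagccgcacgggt
Brca1 and Nbr1 (chr11:101551956-101552106, minus strand): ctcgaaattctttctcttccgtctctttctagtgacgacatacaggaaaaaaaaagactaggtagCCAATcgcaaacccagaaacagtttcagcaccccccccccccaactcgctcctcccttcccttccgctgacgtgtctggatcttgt
Mre11a and Ankrd49 (chr9:14784574-14784653, plus strand): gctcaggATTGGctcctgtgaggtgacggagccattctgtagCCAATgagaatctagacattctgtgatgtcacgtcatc
Xrcc6 and Desi1 (chr15:82016221-82016368, plus strand): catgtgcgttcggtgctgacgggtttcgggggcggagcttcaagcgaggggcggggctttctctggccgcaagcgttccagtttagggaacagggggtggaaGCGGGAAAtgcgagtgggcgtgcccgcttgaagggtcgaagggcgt
Pms2 and Aimp2 (chr5:143909840-143910000, plus strand): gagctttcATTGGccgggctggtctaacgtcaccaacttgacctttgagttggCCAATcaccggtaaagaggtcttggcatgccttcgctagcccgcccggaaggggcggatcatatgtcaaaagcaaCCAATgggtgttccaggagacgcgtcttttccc
The neighbours in these 6 pairs were above background, and of the other 5 neighbours Zswim9 was above it, 2 were below it and 2 were not measured. Prpf38a, a splicing factor gene beside Orc1, had signals of 169 on array 1 and 133 on array 2. Ap4m1, an adaptor subunit gene beside Mcm7, had 43.6 on array 1 and 47.1 on array 2. Nbr1, an autophagy receptor gene beside Brca1, had 847 on array 1 and 783 on array 2. The other 3 neighbours passed as well. Ankrd49 beside Mre11a had 93.5 on array 1 and 85.2 on array 2. Desi1, a deSUMOylating peptidase gene beside Xrcc6, had 254 on array 1 and 238 on array 2. Aimp2, a scaffold of the tRNA synthetase complex beside Pms2, had 485 on array 1 and 478 on array 2. Of the others above background, Rars2 (mitochondrial arginyl-tRNA synthetase) beside Orc3 had 192 on array 1 and 176 on array 2. Ufd1 beside Cdc45 had 127 on array 1 and 184 on array 2. Zswim9 beside Lig1 had 28.8 on array 1 and 36.6 on array 2, just past the bounds of 27.9 and 33.8. Npat, an activator of histone genes that starts beside Atm, had 153 on array 1 and 159.6 on array 2. Tmem258, whose start overlaps that of Fen1, had 61.8 on array 1 and 70.1 on array 2. The 4 measured neighbours below background were Gm15834 beside Orc2 (10.3 and 26.6), Gm15728 beside Rfc5 (11.4 and 9.1), Pinlyp beside Xrcc1 (2.1 and 3.0) and 1700065D16Rik beside Atr (0.8 and 1.2).

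Recombination and end joining genes were at 1.49 to 5.57 times the bound. Brca1, which directs broken ends to recombination, had signals of 209.9 on array 1 and 175 on array 2. Brca2, needed for repair of breaks by recombination, had 109 on array 1 and 109 on array 2 in its only probe set. The 3 genes of the complex that senses and trims broken ends had margins of 2.74 to 3.22. Rad50 had 122 on array 1 and 92.5 on array 2, Mre11a, its nuclease, had 114 on array 1 and 109 on array 2, and Nbn had 103 on array 1 and 104 on array 2. The 2 subunits of Ku, which holds ends for joining, were at 4.30 and 5.57 times the bound. Xrcc5 (Ku80) had 123 on array 1 and 146 on array 2 and Xrcc6 (Ku70) had 204 on array 1 and 188 on array 2. The Fanconi anaemia genes, which act on crosslinks between the strands, had a median margin of 2.60. Fanca had 119.5 on array 1 and 130.1 on array 2 and Fancc had 54.7 on array 1 and 50.3 on array 2, both of the core complex. Fancd2, which that complex ubiquitinates, had 86.9 on array 1 and 88.0 on array 2.

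Both mismatch repair genes were above background. Msh6, a subunit of the complex that recognises mismatches, had 270.1 on array 1 and 306 on array 2 (9.04 times the bound). Pms2, of the nuclease complex that follows it, had 87.2 on array 1 and 90 on array 2 (2.66 times). All 6 excision repair genes were above background. In base excision, Xrcc1, the scaffold that gathers the repair enzymes, had 266 on array 1 and 263 on array 2. The glycosylases, which remove the damaged base, passed with smaller margins (2.67 and 2.07). Ung, which removes uracil, had 102 on array 1 and 90.3 on array 2, and Ogg1, which removes oxidised guanine, had 57.8 on array 1 and 87.4 on array 2. In nucleotide excision, Ercc1, a subunit of the nuclease that cuts beside the lesion, had 286 on array 1 and 280.4 on array 2. Its margin was 8.30 in this s_at probe set and 6.71 without it. Xpc, which finds lesions across the genome, had 98.9 on array 1 and 106 on array 2. Xpa, which verifies the lesion, had 51.4 on array 1 and 39.7 on array 2, at 1.17 times the bound the nearest of all 57 genes. Xpa and Fancc were the 2 members under 2 times the bound, and Ogg1 followed at 2.07. The checkpoint kinases were at 2.65 to 3.32 times the bound, with Chek1 at 3.32 in an s_at probe set and at 2.08 without it. Atm, which responds to broken ends, had 102 on array 1 and 97.0 on array 2. Atr, which responds to stalled forks, had 82.5 on array 1 and 89.5 on array 2, and Chek1, its downstream kinase, had 107 on array 1 and 112 on array 2.

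Other genes of the same pathways, listed apart from the members, had the same order of replication and repair. These lists too were written with earlier results of these data known. Their counts and medians describe the lists and are no independent check. Of the 82 genes measured, 74 were above background (90.2%), against 65.5% of all genes, with a median of 3.54 times the bound. All 28 other replication genes passed, with a median of 6.79. Gins3 had signals of 74.9 on array 1 and 85.8 on array 2, Gins4 had 256 on array 1 and 257 on array 2, and Pola2, the second subunit of polymerase alpha, had 116 on array 1 and 134 on array 2. The 54 other repair and checkpoint genes passed in 46 cases (85.2%), with a median of 1.95, below the 2.15 of all genes. Of these 54 genes 6 reached at least 10 times the bound, with a highest multiple of 49.8. Of the 28 other replication genes 6 reached it. In recombination 17 of 21 passed, among them Rad51d (51.9 and 46.6) and Xrcc3 (59.9 and 56.2). Below the bound on both arrays were Rad51c (13.4 and 11.2), Bard1, the partner of Brca1 (3.0 and 2.0), and the end joining factor Nhej1 (20 and 28.7). The helicase gene Brip1 (32.7 and 30.4) passed on array 1 alone. All 4 other mismatch genes measured passed, with a median of 2.50. Msh3 had 101 and 103, Mlh3 had 63.0 and 62.8 and Pms1 had 67.8 and 66.2. In excision repair 17 of 21 passed. Lig3 had 162 and 115, and of the poly(ADP-ribose) polymerase genes Parp1 had 593 and 718 and Parp2 had 141 and 142. The glycosylase genes Mutyh (41.2 and 18.5) and Nthl1 (46.5 and 29.8) passed on array 1 alone and the nucleotide excision gene Ercc2 (22.9 and 56.6) on array 2 alone, while Ercc6 (7.4 and 5.1) was below the bound on both. All 8 other checkpoint genes passed, with a median of 5.09, and Chek2 had 188 and 189, Trp53bp1 had 582 and 591 and Mdc1 had 175 and 170.1. Being below the bound on this array does not show that a gene is silent.

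Lists of dividing and of meiotic cells, also written with earlier results of these data known, stood at opposite ends. All 19 measured cell cycle genes were above background, against 65.5% of all genes, with a median of 14.8 times the bound. Mki67, the marker of dividing cells, had 1075 on array 1 and 1133 on array 2. Cdk1, the mitotic kinase, had 661 on array 1 and 523 on array 2, and its cyclin gene Ccnb2 had 618 on array 1 and 606 on array 2. Of 12 genes of meiotic recombination, 0 were above background, and their highest signal on either array was 30.5. Most of them had 1 probe set, and of all genes with 1 probe set 48.6% passed. In RNA of whole embryos this does not show that the meiotic genes are silent in every cell. The recombinase gene Dmc1 had 10.6 on array 1 and 22.6 on array 2, Spo11, which cuts DNA in meiosis, had 11.2 on array 1 and 15.3 on array 2, and Msh4, a meiotic relative of the mismatch genes, had 4.5 on array 1 and 2.4 on array 2.

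Probe sets of one gene did not all pass, in the members as in genes generally. The members had 132 probe sets, of which 99 were above the bound on both arrays, 6 on 1 array and 27 on neither, while 55.6% of all probe sets with 1 symbol passed on both. Of the 42 members with several probe sets, all passed in 18 (42.9%) and at least 1 did not in 24. Over all genes with several probe sets and a call, all passed in 35.5% (2649 of 7465). In 10 of these 24 genes the call rested on 1 probe set, as in Xpa, whose other probe sets had 7.3 and 0.4 on array 1 and 9.1 and 0.5 on array 2. Cdt1 also had a probe set far below the bound, at 0.7 on array 1 and 1.4 on array 2. Of the other probe sets of Top2a, 1 passed at 74.8 on array 1 and 102.6 on array 2 and 1 did not, at 2.1 on array 1 and 2.5 on array 2. Of the 5 probe sets of Chek1, 2 passed on both arrays. Which transcript form or end each probe set detects was not analysed here.

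**Figure D4:**
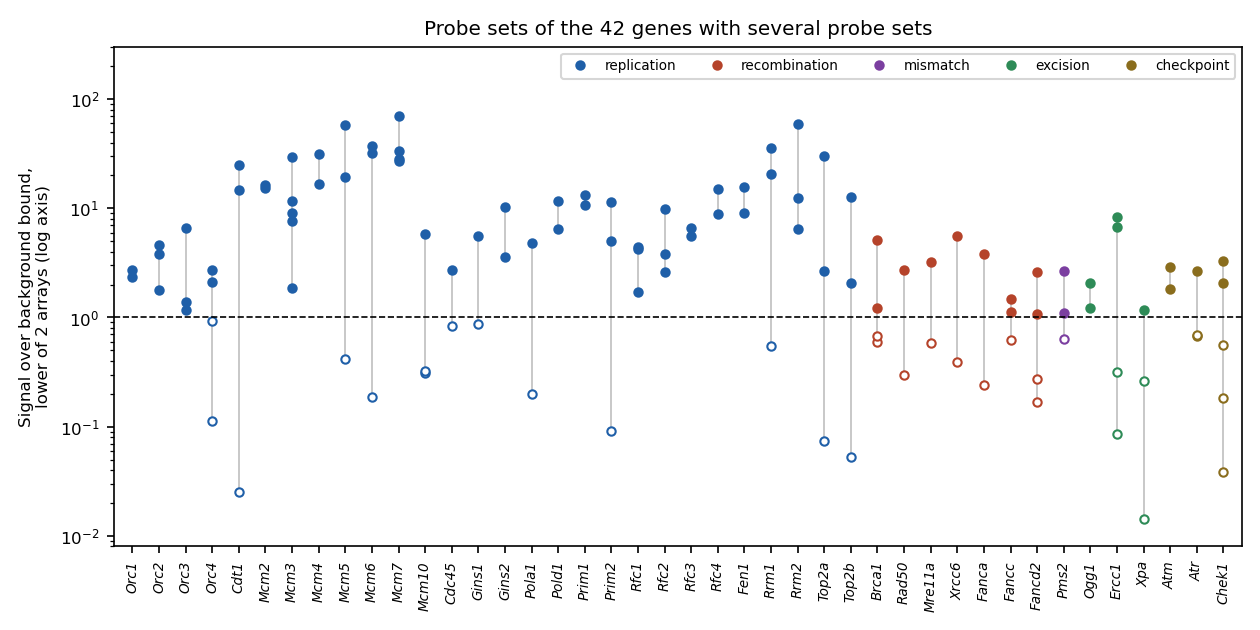
Signal over the bound (lower of the 2 arrays, log axis) for each probe set of the 42 members with several, filled where the probe set passed on both arrays and open where it did not, with a broken line at the bound. All genes have at least 1 filled point, and 24 also have an open point.

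The duplicate arrays gave close signals for the members. The log2 difference, array 1 minus array 2 after centring on the median of all probe sets above the bound, had a median of 0.03 and an SD of 0.19 over the 57 members, against an SD of 0.24 over 11901 genes. Signals were higher on array 1 for 32 members and lower for 25, against 53.7% higher among all genes. Ogg1 was the only member beyond 1.5-fold (log2 difference -0.59), against 2.71% of all genes. After it the lowest differences were those of Pold1 (-0.35) and Rfc4 (-0.31), and the highest those of Rad50 (0.41), Orc5 (0.39) and Xpa (0.38). The second probe set of Ogg1 had 42.6 on array 1 and 40.9 on array 2, so the difference was not shared by both. The second probe set of Rfc4 moved as the first did, with 248 on array 1 and 299.7 on array 2.

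The direction of the differences among members also varied with the kind of probe set. An identifier that ends in x_at marks a probe set in which some probes also match other sequences. Of 10 such probe sets of members above the bound, 9 were lower on array 1, with a median difference of -0.17, against 55.0% lower among all 1339 such probe sets. They belong to 9 genes, namely Fen1, Mcm3, Mcm4, Mcm5, Mcm6, Mcm7, Pold1, Rfc2 and Rrm2, and all 9 had other probe sets above the bound. In these same genes the other probe sets were higher on array 1 in 7 and lower in 2, with a median of 0.05, against -0.15 for the x_at probe sets. Large differences were not confined to x_at probe sets. The 63 member probe sets with no such letter ranged from -0.59 in Ercc1 to 0.68 in Rrm2. Both of these are past 1.5-fold, in probe sets that are not the brightest of their gene. In Mcm7, the x_at probe set had 761 on array 1 and 1458 on array 2 (-0.93), while its brightest probe set had 2412 and 2377. In Pold1, the x_at probe set shown above had 323 and 413 and the other had 236 and 218, so the sign of the difference depends on the probe set. Whether other sequences contributed to these signals was not tested.

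**Figure D5:**
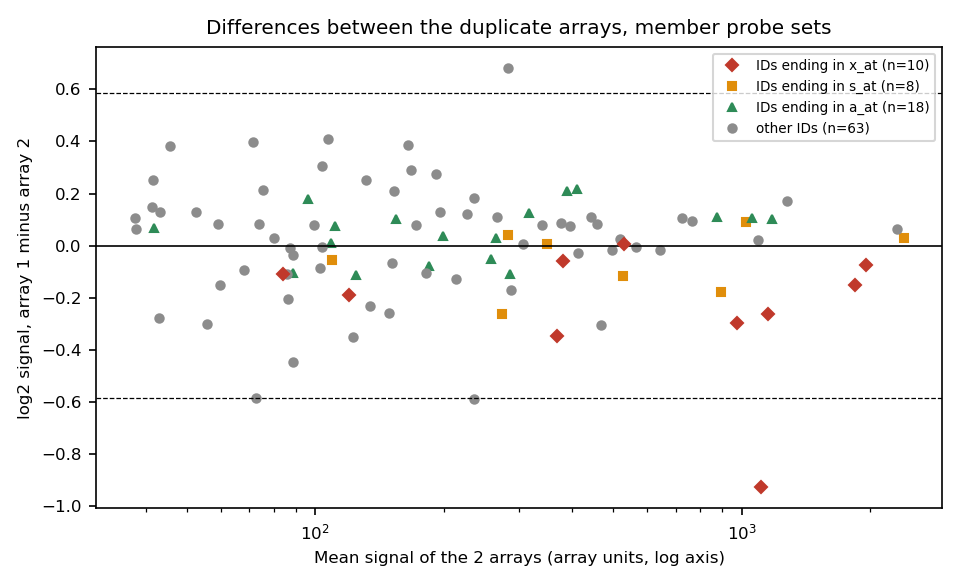
Log2 signal of array 1 minus array 2 (centred) against the mean signal of both arrays (array units, log axis) for the 99 member probe sets above the bound, by the ending of their identifier, with broken lines at 1.5-fold. Of the 10 x_at probe sets 9 lie below 0, and the lowest of them, at -0.93, is that of Mcm7.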

How the data were processed

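The deposited signal intensities, 1 per probe set and array on a linear scale, were made by the authors from 2 arrays with GCOS 1.3, named in the submitters' processing notes. Detection calls were not used here. Of 45101 probe sets, 34958 had 1 symbol in the array's annotation, 932 had several and 9211 were not listed; symbols were updated through RefSeq gene identifiers (34754 matched). Each signal was divided by its array's bound. Members and lists were chosen with earlier results of these data known. The text names all members, the first 3 measured genes of each list with up to 5 exceptions, the measured neighbours and the 3 members with the largest difference between arrays each way. Of 135 listed names 121 were measured, and the others were not analysed here. Motifs and neighbours came from RefSeq promoters. Protein sequences were not analysed here. No p-value was computed. Alternatives covered the bound, the probe sets used, the scaling and the promoter window. The calls against the bound and the differences between arrays were tested on simulated arrays, and the motif and neighbour steps were not. Expressed and silent probe sets were drawn far apart in those arrays, so the calls of dim genes were not tested. The number of arrays limits the precision. Python 3.11.15, pandas 2.3.3, numpy 2.4.6, statsmodels 0.14.6 and matplotlib 3.10.9 were used.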

Additional observations from a re-analysis of the deposited data

How the results depend on the processing

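All 57 members stayed above background under 6 of 7 alternatives, and 398 of 399 calls were kept. The exception was Xpa with a bound at the 99th percentile, where its ratio was 0.96. The 90th percentile bound and the omission of either array only loosen the rule, so no call could be lost there. Over the same alternatives the share of all genes above background ranged from 61.9% to 69.0%. The median multiple of the bound over the members, 6.54, was 7.67 with the 90th percentile bound, 5.34 with the 99th, 5.84 without x_at and s_at probe sets and 3.85 with the median over a gene's probe sets. With 1 array left out it ranged from 6.54 to 7.52. The count of members beyond 1.5-fold between arrays, 1, was 0 after quantile normalization, after loess, with a pseudocount of 16 and with the median over probe sets, and 2 without x_at and s_at probe sets. The difference of Ogg1 was -0.26 with the median over probe sets, and that of Pold1 turned to 0.12 without x_at and s_at probe sets. Read on the strand of the gene alone, E2F-type words were found in 4 members (8.70%, against 1.12% of all genes of the table) and CCAAT in 13 (28.3%, against 21.5%). In the whole 300-base window, which reaches 50 bases past the start, E2F-type words were found in 15 members (32.6%, against 2.6% of all genes of the table). Restriction to the first listed promoter, chosen after seeing the data, left the E2F-type count at 10. No paired analysis was possible because both arrays belong to 1 group. Signals near the bound, as in Xpa and Fancc, limit what can be said of dim genes.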
